A study of Mus musculus with 4 samples.

Results

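The genes described here encode enzymes and regulators of cholesterol and fatty acid synthesis, 36 genes of the 19938 that had a probe set of their own on the array. They were taken from a list of gene names, and each was read from 1 probe set, the one with the highest mean over the 4 arrays where a gene had several. All 36 names had such a probe set, and no filter on dim genes was applied, so every member entered the tests. Cholesterol is built from acetyl-CoA through mevalonate and squalene, and fatty acids from the same precursor by carboxylation, chain building, elongation and desaturation. The SREBP transcription factors, held in the endoplasmic reticulum by Scap and Insig proteins when sterols are plentiful, drive most of these enzymes. LXR receptors sense oxidised sterols and induce cholesterol exporters. Lymphocytes are known to raise both pathways when they grow and divide, since new membranes need both lipids.

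RNA came from C57BL/6 mouse bone marrow cells in 3 groups. The first was a pool of wild-type LMPPs, multipotent progenitors sorted as lineage-negative, Sca1+, Kit+ and Flt3-high, not labelled as given virus, kept for 48 hours in the medium used for transduction (15% serum, with IL-3, IL-6, SCF and Flt3 ligand) and measured on 1 array. The second, here Tcf1 cells, came from LMPPs given a Tcf1 retrovirus with the marker VEX, sorted for VEX and grown to day 10 on OP9 stroma, which lacks a Notch ligand. The labels name its 2 arrays as biological replicates. The third, here control cells, came from LMPPs given the VEX vector alone and grown to day 10 on OP9 stroma with the Notch ligand DL4, and were measured on 1 array. Both cultures held 20% serum, IL7 (1 ng/ml) and Flt3 ligand (5 ng/ml), and live CD45.2+ cells positive for Thy1 and CD25 and negative for Mac1 and Gr1 were sorted from them. Tcf1 and control cells thus differed in vector and stroma together, and both differed from LMPPs in time, medium, serum, stroma and sort gate. The effects of these on any lipid gene cannot be told apart.

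Values are log2 signals, so a difference of 1 is a 2-fold change in signal, and levels of different genes are not compared because each probe set has its own brightness. Array medians over the named genes lay between 7.47 and 7.59, and the 5th and 95th percentiles between 4.68 and 4.80 and between 11.04 and 11.20. The 75th percentile was 9.35 in LMPPs, 9.12 and 9.32 in the Tcf1 replicates and 9.33 in control cells. Tcf1 replicate 1 was thus dimmer in the upper range, and small differences of bright genes depend on this scaling. The sort markers Il2ra and Thy1 were high in both cultures (12.38 to 13.64) and low in LMPPs (6.88 and 8.13), as the gates require. Of 8 T lineage and gate genes, Il2ra and Thy1 among them, 6 were higher in Tcf1 cells than in LMPPs past the test. Against control cells 3 were lower (Gata3, Cd3e and Cd3g). Gata3 read 7.58 in LMPPs, 9.95 and 10.29 in the Tcf1 replicates and 11.42 in control cells. Bcl11b read 7.42, 9.40, 9.60 and 10.28 in the same order and did not pass against control cells (adjusted p = 0.0593, limma). Cd3e, a defining T cell gene, did not pass against LMPPs. It read 7.45 and 7.42 in the Tcf1 replicates, near the 7.32 of LMPPs, against 10.41 in control cells. Tcf1 cells also carried macrophage markers: of 15, 7 were higher than in LMPPs and 10 higher than in control cells past the test. Of all genes, 1.75% and 1.90% were. Both Tcf1 replicates read above LMPPs for 13 of the 15 and below for 1 (Marco). The mean of the 15 was 8.71 and 8.99 in the Tcf1 replicates, 7.66 in LMPPs and 6.81 in control cells (summed linear signals of 11590, 14670, 4640 and 2017). In RNA from bulk cells, fewer cells of a type and less RNA per cell cannot be told apart.

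Promoter sequence is shown first for Hmgcs1, Cyp51 and Sc5d. They are sterol enzymes that either passed a test or were at least 2-fold apart between control cells and LMPPs, and they have a single start in the RefSeq table used. Each window runs from 250 bases before to 50 bases after the start, in gene direction, on build GRCm38.p6. Hmgcs1 lies at chr13:119690101-119690400 on the plus strand, Cyp51 at chr5:4104648-4104947 on the minus strand and Sc5d at chr9:42264251-42264550 on the minus strand. Capitals mark every match on either strand to a sterol regulatory element (TCACNCCAC), a CCAAT box (CCAAT), a GC box (GGGCGG) or a palindromic E-box (CACGTG), and no matches to different motifs overlapped in these windows.
Hmgcs1: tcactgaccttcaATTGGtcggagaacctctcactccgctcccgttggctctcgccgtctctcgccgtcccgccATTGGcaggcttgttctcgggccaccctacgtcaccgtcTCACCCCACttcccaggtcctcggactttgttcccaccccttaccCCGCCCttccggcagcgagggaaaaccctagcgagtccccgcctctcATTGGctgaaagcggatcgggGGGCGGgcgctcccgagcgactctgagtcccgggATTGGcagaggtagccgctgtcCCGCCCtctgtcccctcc
Cyp51: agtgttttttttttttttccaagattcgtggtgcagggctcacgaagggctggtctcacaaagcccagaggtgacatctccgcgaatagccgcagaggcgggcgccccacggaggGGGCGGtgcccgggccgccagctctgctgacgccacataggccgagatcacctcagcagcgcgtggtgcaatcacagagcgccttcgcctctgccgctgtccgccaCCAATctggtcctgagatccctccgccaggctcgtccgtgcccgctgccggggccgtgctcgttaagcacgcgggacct
Sc5d: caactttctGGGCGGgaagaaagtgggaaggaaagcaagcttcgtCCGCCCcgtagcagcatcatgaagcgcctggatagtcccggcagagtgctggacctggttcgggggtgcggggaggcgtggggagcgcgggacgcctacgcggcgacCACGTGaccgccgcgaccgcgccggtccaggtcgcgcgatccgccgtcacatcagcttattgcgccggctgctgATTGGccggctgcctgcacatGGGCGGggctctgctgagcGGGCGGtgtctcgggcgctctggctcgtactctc

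Sterol regulatory elements are sites that SREBP proteins bind, searched here as 1 fixed pattern. CCAAT and GC boxes bind NF-Y and Sp1, the usual partners of SREBP proteins. Hmgcs1 held the sterol element (TCACCCCAC, at -137 to -129 counted from the first transcribed base as 0), 4 CCAAT boxes and 3 GC boxes. Cyp51 held 1 CCAAT box and 1 GC box, and Sc5d held 1 CCAAT box, 4 GC boxes and 1 E-box. Of the members, 28 had 37 windows in the table and 8 had none there, among them Scd1, Scd2 and Abcg1. Among the 16 windows of 13 sterol enzymes, 13 held a CCAAT box (81.2%) and 13 a GC box (81.2%), compared with 37.4% and 35.7% of all 32851 windows, and with 37.4% and 49.2% of the 19177 windows of genes on the array. The 21 windows of other members held a CCAAT box in 52.4% and a GC box in 66.7%. The sterol element stood in 1 of 37 member windows (2.70%), against 1.24% of all windows, and the E-box in 8 (21.6%), against 7.15%. These are matches to 1 fixed pattern per motif, and binding was not measured. Sites with other letters were not searched for, so a window without a match may still hold a sterol element.

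Scd1 had the widest range of any member. It encodes a stearoyl-CoA desaturase, which puts the first double bond into saturated fatty acids. Its signal was 6.82 in LMPPs, 10.56 and 10.59 in the Tcf1 replicates and 10.86 in control cells. The LMPP array stood far below the other 3 and the Tcf1 replicates lay 0.03 apart. Tcf1 cells were higher than LMPPs by 3.75 (SE 0.16, 13.5-fold, adjusted p = 0.000222, limma). Control cells read higher than LMPPs by 4.04, 1 array against 1 with no test, and Tcf1 cells differed from control cells by -0.29 (SE 0.16, adjusted p = 0.543, limma). Detection calls were not used here, so whether the LMPP signal lay above background is not known.

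Scd2, another stearoyl-CoA desaturase, was also higher in both cultures than in LMPPs. It read 11.99 in LMPPs, 12.93 and 12.84 in the Tcf1 replicates and 13.04 in control cells. Again LMPPs stood alone below the other 3 arrays. Scd2 was higher in Tcf1 cells than in LMPPs by 0.90 (SE 0.16, 1.87-fold, adjusted p = 0.0374, limma) and differed from control cells by -0.16 (SE 0.16, adjusted p = 0.838). Scd1 and Scd2 have close relatives, and shared signal between their probe sets was not tested.

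Abcg1, a transporter that exports cholesterol to lipoproteins and a target of LXR, was the third member to rise. It read 8.64 in LMPPs, 10.13 and 10.36 in the Tcf1 replicates and 10.55 in control cells. The groups followed that order without overlap, with a clear step above LMPPs and a small one between the cultures. Abcg1 was higher in Tcf1 cells than in LMPPs by 1.60 (SE 0.18, 3.04-fold, adjusted p = 0.00544, limma), and differed from control cells by -0.30 (SE 0.18, adjusted p = 0.585). The mean of the macrophage markers was higher on the Tcf1 arrays than on the LMPP array and lowest on the control array. The part of macrophage RNA in the Scd1 and Abcg1 signals was not tested.

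These 3 genes, 8.33% of the members, rose in Tcf1 cells against LMPPs, where 1.75% of all genes tested rose, and no member fell, where 1.31% of all genes fell. In limma 9 of 36 members had an unadjusted p under 0.05, all with higher signal, where 14.5% of all genes reached that p and 5.33% did so with higher signal. When all 35399 probe sets were tested in place of the named genes, none of the 36 passed (7 had an unadjusted p under 0.05), and adjusted p was 0.149 for Scd1, 0.233 for Abcg1 and 0.336 for Scd2.

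**Figure D1:**
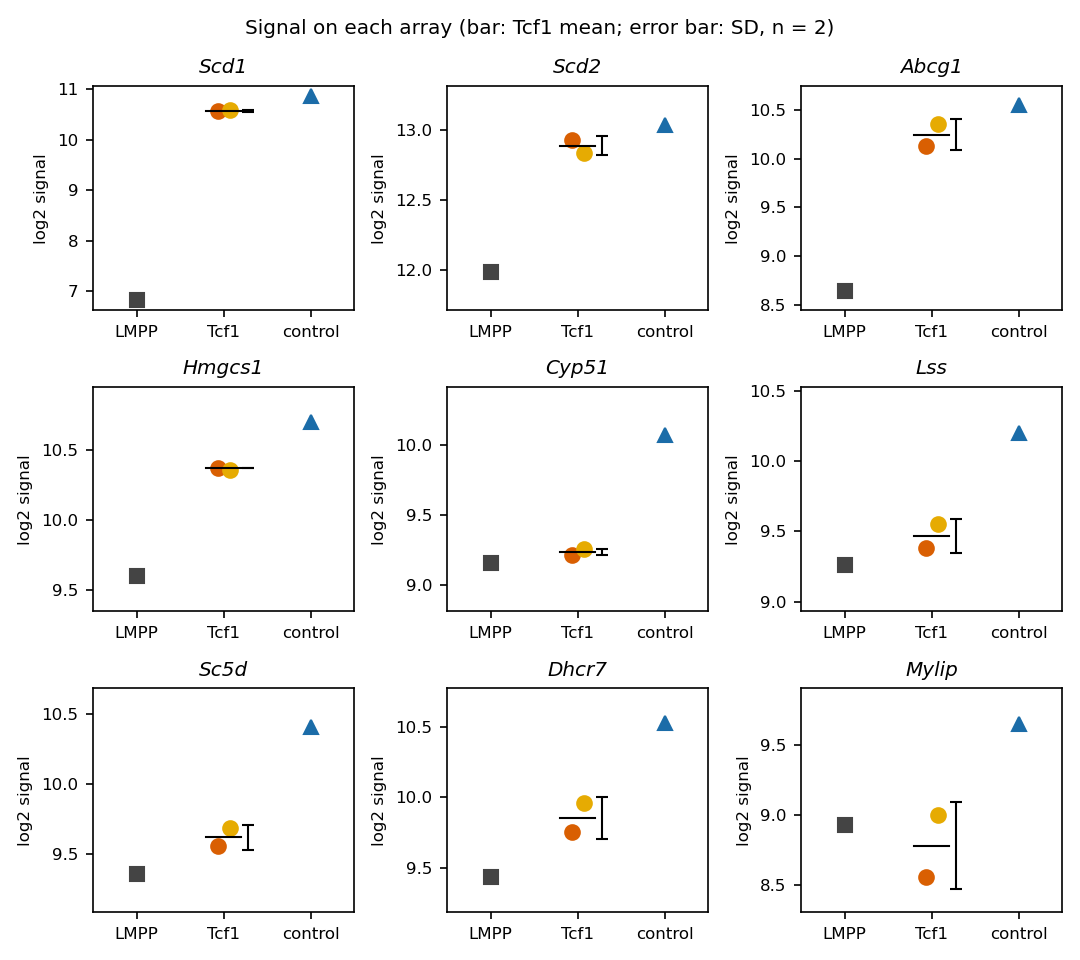
Log2 signal on each array for 9 members, with LMPPs as squares, the 2 Tcf1 replicates as circles and control cells as triangles; the bar is the Tcf1 mean, the error bar its SD (n = 2), and each panel has its own log2 axis. Scd1, Scd2 and Abcg1 are low only in LMPPs, whereas Cyp51, Lss, Sc5d and Dhcr7 stand highest in control cells, with the Tcf1 replicates nearer to LMPPs.

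The other fatty acid desaturases and the elongases showed smaller differences. Fads2, which starts the conversion of linoleic acid to longer polyunsaturated chains, read 11.88 in LMPPs, 12.28 and 12.32 in the Tcf1 replicates and 12.73 in control cells, so the groups were ordered without overlap. It differed by 0.42 between Tcf1 cells and LMPPs (adjusted p = 0.288, limma). Fads1, the next desaturase in that route, spanned 0.15 over the 4 arrays. Elovl5, an elongase of polyunsaturated chains, read 11.51 in LMPPs, 11.96 and 11.97 in the Tcf1 replicates and 12.15 in control cells, a difference of 0.45 between Tcf1 cells and LMPPs (adjusted p = 0.248). Elovl6, which lengthens palmitate, differed by 0.08, with a gap of 0.31 between its replicates.

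Elovl1, an elongase of very long saturated chains, ran the other way. It read 11.83 in LMPPs, 11.53 in both Tcf1 replicates and 11.12 in control cells. By the probe set used for each gene, it was the only member with a lower signal in control cells than in LMPPs. Its differences were -0.30 against LMPPs (adjusted p = 0.505, limma) and 0.41 against control cells (adjusted p = 0.296).

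The enzymes that make palmitate were nearly level over the 4 arrays. Acly, which splits citrate into cytosolic acetyl-CoA, spanned 0.16, and Acaca, the carboxylase that commits acetyl-CoA to fatty acids, spanned 0.13. A second Acaca probe set gave 9.01 in LMPPs, 8.94 and 8.96 in the Tcf1 replicates and 8.89 in control cells, with LMPPs highest. Fasn, the synthase that builds the chain, read 11.48 in LMPPs, 11.61 in both Tcf1 replicates and 11.75 in control cells. Acacb, the carboxylase linked to mitochondria, read 6.78 to 6.86. None of the 4 passed in either comparison, and none had an unadjusted p under 0.05 in limma, which 14.5% of all genes reached against LMPPs and 14.1% against control cells. Their differences from LMPPs were at most 0.12 in Tcf1 cells and 0.26 in control cells.

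All 16 sterol enzymes read higher in control cells than in LMPPs, with a median difference of 0.71 and a range from 0.05 (Pmvk) to 1.11 (Hmgcs1). Over all 36 members 35 did so (97.2%), against 47.2% of all genes, whose median difference was -0.01. This count uses 1 probe set per gene, and the second Acaca probe set read lower in control cells than in LMPPs. At least 2-fold higher in control cells were 6 members (16.7%), against 3.17% of all genes: Hmgcs1, Sc5d, Dhcr7, Scd1, Scd2 and Abcg1. No member was at least 2-fold lower, against 2.36% of all genes. These counts compare 1 array with 1 and have no replicate check.

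**Figure D2:**
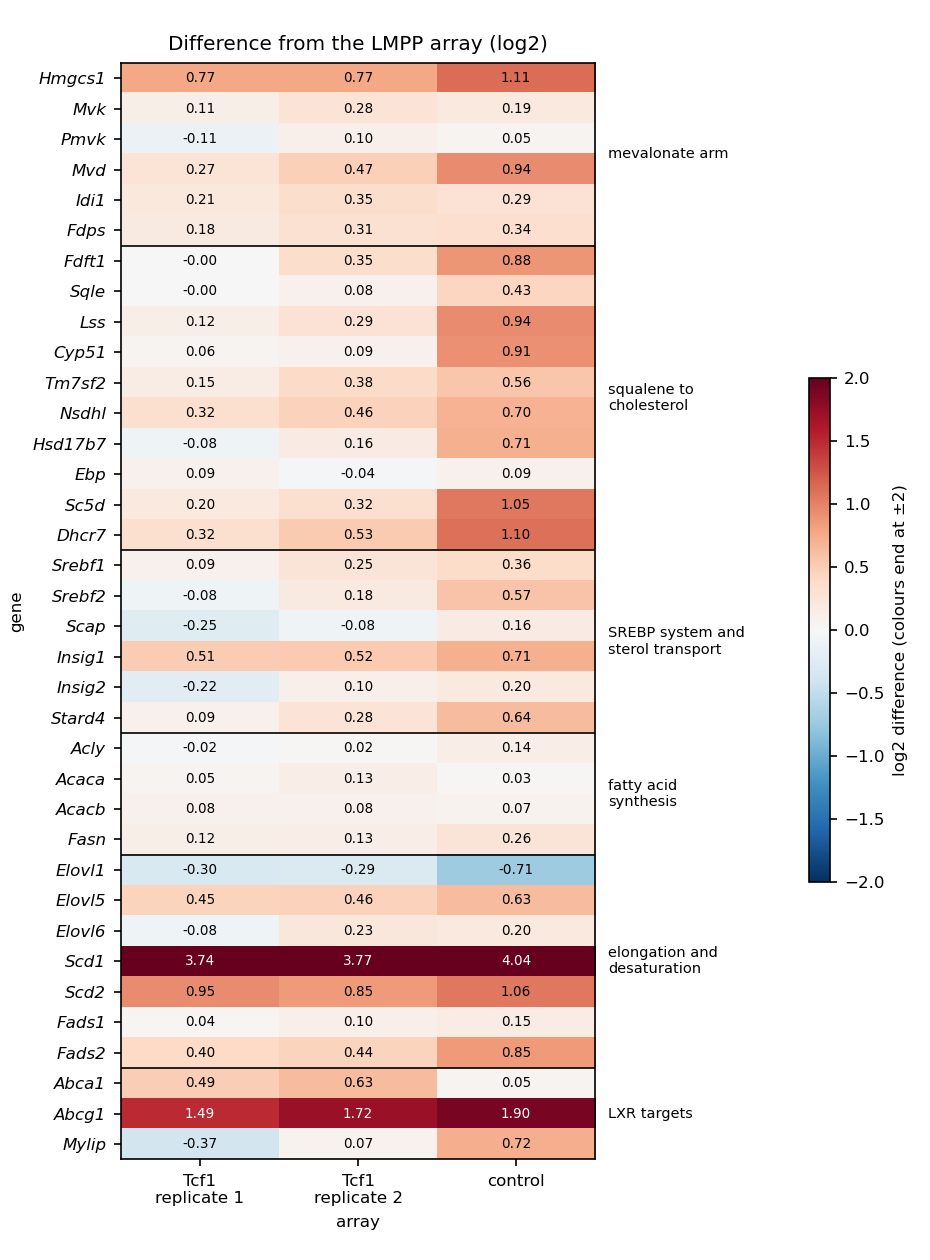
Log2 difference from the LMPP array for each member (rows, grouped by role) in the 2 Tcf1 replicates and the control array (columns), with colours ending at 2 on either side. The squalene to cholesterol block is paler in the Tcf1 columns than in the control column, whereas Scd1 (3.74, 3.77 and 4.04) and Abcg1 (1.49, 1.72 and 1.90) are dark in all columns.

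In the mevalonate arm, Hmgcs1 stood out. It encodes the cytosolic HMG-CoA synthase at the entry of the pathway. Its signal was 9.60 in LMPPs, 10.37 and 10.36 in the Tcf1 replicates and 10.70 in control cells, with LMPPs well below the rest. The difference between Tcf1 cells and LMPPs was 0.77 (SE 0.16) and did not pass (adjusted p = 0.0614, limma). It passed after median centring (0.73, adjusted p = 0.0245), after renewed quantile normalization (0.88, adjusted p = 0.0425), with dim genes left out (adjusted p = 0.0183) and with a trended variance prior (adjusted p = 0.0322). It did not pass with averaged probe sets (adjusted p = 0.0515) or over all probe sets (adjusted p = 0.372).

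The remaining genes of that arm lay closer together. Mvd, the decarboxylase that forms isopentenyl pyrophosphate, read 8.66 in LMPPs, 8.94 and 9.14 in the Tcf1 replicates and 9.61 in control cells, again in order without overlap. Mvk and Pmvk, the kinases that phosphorylate mevalonate, spanned 0.28 and 0.21 over the arrays. Idi1, an isomerase, and Fdps, which makes farnesyl pyrophosphate, spanned 0.35 and 0.34. None of the 6 passed in either comparison. In limma, Hmgcs1 against LMPPs and Mvd against control cells had an unadjusted p under 0.05.

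Beyond farnesyl pyrophosphate, 9 of the 10 enzymes had both Tcf1 replicates below control cells (against 34.2% of all genes), Ebp being the exception. Their median difference between Tcf1 and control cells was -0.67, compared with -0.08 in the mevalonate arm and 0.02 over all genes. Cyp51, the lanosterol demethylase, passed the test. It read 9.16 in LMPPs, 9.22 and 9.26 in the Tcf1 replicates and 10.07 in control cells, so that Tcf1 cells and LMPPs lay together and control cells stood apart. Cyp51 was lower in Tcf1 cells than in control cells, with a difference of -0.83 (SE 0.16, 1.78-fold, adjusted p = 0.0365, limma). It was the only member past that test (2.78% of members), where 2.49% of all genes were lower and 1.90% higher, so the share of members called was close to the background in this setting. After median centring 8 of 36 members passed (1646 of 19938 genes), and over genes above the 25th percentile 7 of 36 did (1437 of 14952 genes). The Cyp51 call was made in 4 of 6 alternatives and was lost after renewed quantile normalization (-0.72, adjusted p = 0.0597) and over all probe sets (adjusted p = 0.266).

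Several neighbours of Cyp51 in the pathway had differences of like size without passing, and some passed under other settings. Of 6 alternatives, Sc5d passed in 4, Fdft1 in 3, and Lss, Dhcr7 and Hsd17b7 in 2 each. Sc5d, the lathosterol desaturase, read 9.36 in LMPPs, 9.56 and 9.69 in the Tcf1 replicates and 10.41 in control cells. Its difference from control cells was -0.78 (SE 0.17, adjusted p = 0.0509, limma), just short of the threshold. Lss, which closes squalene epoxide into lanosterol, read 9.26, 9.38, 9.55 and 10.20 on the LMPP, Tcf1 and control arrays in turn. Lss differed from control cells by -0.73 (adjusted p = 0.0709). Both genes showed the order of LMPPs below Tcf1 cells below control cells.

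Dhcr7, which makes cholesterol from 7-dehydrocholesterol, read 9.43 in LMPPs, 9.75 and 9.96 in the Tcf1 replicates and 10.53 in control cells (-0.68 against control cells, adjusted p = 0.100, limma). Fdft1, the squalene synthase, read 10.65 in LMPPs and in Tcf1 replicate 1, 11.00 in replicate 2 and 11.52 in control cells (-0.70, adjusted p = 0.133). A second Fdft1 probe set gave 10.59 in LMPPs and in Tcf1 replicate 1, 10.82 in replicate 2 and 11.33 in control cells. Hsd17b7, a sterol reductase, had LMPPs (9.22) between its Tcf1 replicates (9.13 and 9.38) and control cells at 9.92 (-0.67, adjusted p = 0.114).

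Sqle, the squalene epoxidase and a control point of the pathway, read 9.85 in LMPPs, 9.85 and 9.93 in the Tcf1 replicates and 10.28 in control cells. Nsdhl, which acts in removal of the C4 methyl groups, read 10.18, 10.50, 10.64 and 10.89 in the same order, with no overlap between groups. Tm7sf2, a sterol reductase, spanned 0.56 with the same order of groups, and Ebp, a sterol isomerase, spanned 0.13 with control cells between the Tcf1 replicates. In limma 7 of these 10 genes had an unadjusted p under 0.05 against control cells, all lower in Tcf1 cells (8.37% of all genes were lower at that p), and 1 (Dhcr7, higher) against LMPPs.

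**Figure D3:**
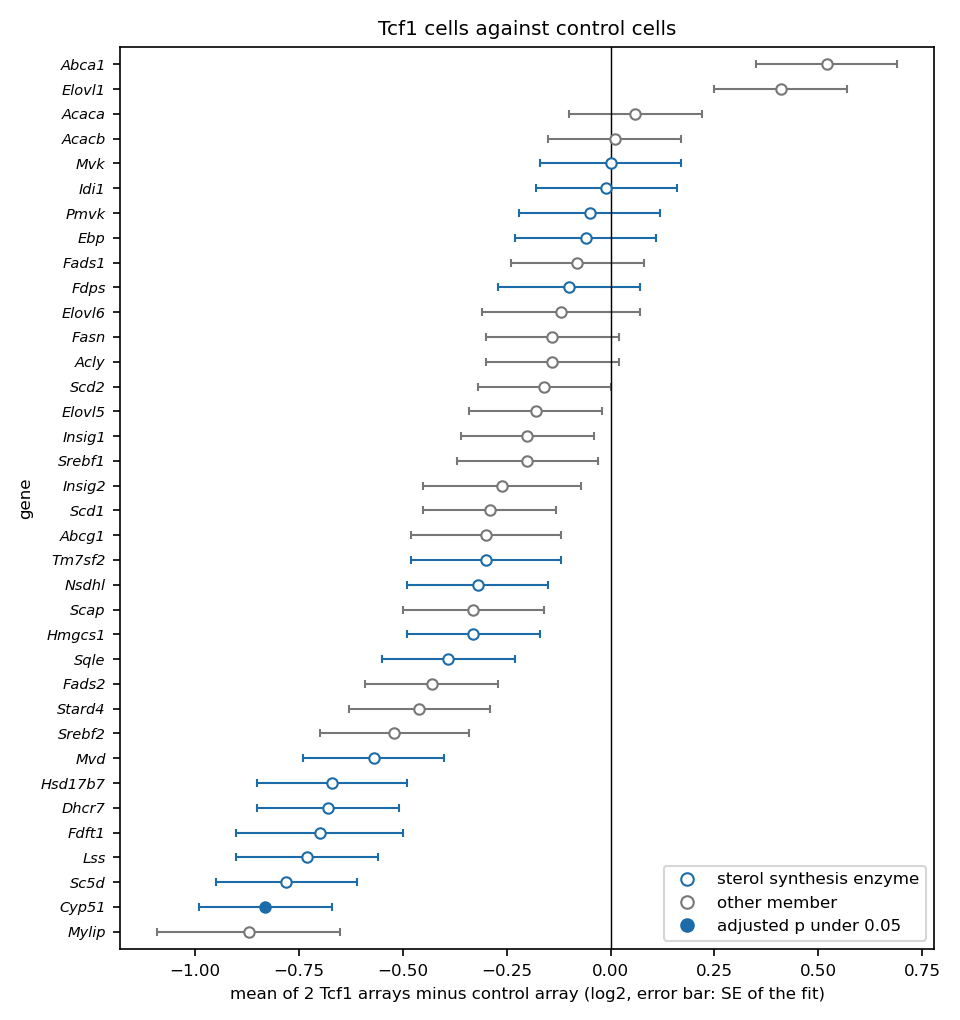
Difference between the mean of the 2 Tcf1 arrays and the control array for each member (log2, error bars are the SE of the fit), sorted by size, with sterol enzymes in blue and the 1 gene past the test filled. Mylip (-0.87) and Cyp51 (-0.83) are lowest, and Abca1 (0.52) and Elovl1 (0.41) are the highest.

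Counted together, 27 of 36 members had both Tcf1 replicates below control cells (75%), against 34.2% of all genes. Both replicates were above LMPPs for 24 members (66.7%), against 35.8% of all genes, and below LMPPs for 2 (Scap and Elovl1), against 36.8%. Acaca was among the 24, whereas its second probe set had both replicates below LMPPs. The full order, LMPPs below both Tcf1 replicates and these below control cells, was met by 19 members (52.8%), against 9.51% of all genes. Among the sterol enzymes 9 of 16 met it (56.2%). These counts share the Tcf1 arrays, and the comparisons with LMPPs share the LMPP array, so they are not independent of each other. After median centring 31 members lay below control cells and 23 above LMPPs, and after renewed quantile normalization 29 and 31. Tcf1 replicate 2 read above replicate 1 for 32 of 36 members, and for 13530 of all genes, and the members' median difference from LMPPs was 0.10 when replicate 2 was left out and 0.28 when replicate 1 was.

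**Figure D4:**
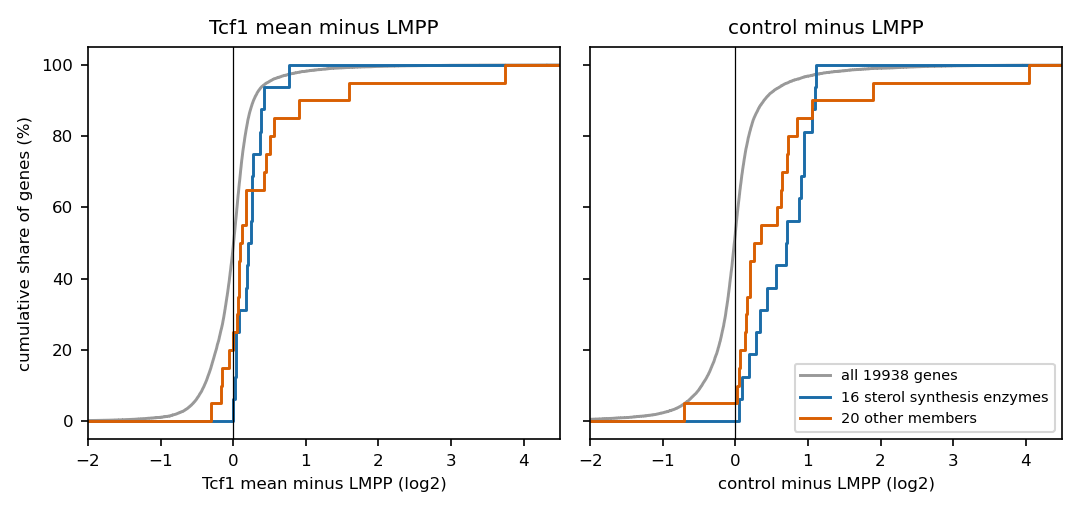
Cumulative share of genes (%) against the log2 difference from the LMPP array, for the Tcf1 mean (left) and control cells (right), with all 19938 genes in grey, 16 sterol enzymes in blue and 20 other members in orange. The sterol enzymes have a median of 0.22 on the left and 0.71 on the right, whereas the median of all genes is 0.00 and -0.01.

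None of the 6 genes for SREBP control and sterol transport passed. All 6 had both Tcf1 replicates below control cells, against 34.2% of all genes. Their median difference between Tcf1 and control cells was -0.29. Srebf2, which encodes the SREBP form that favours sterol genes, read 10.60 in LMPPs, 10.52 and 10.78 in the Tcf1 replicates and 11.16 in control cells (-0.52 between Tcf1 and control cells, adjusted p = 0.238, limma). Srebf1, whose product favours fatty acid genes, read 9.48 in LMPPs, 9.56 and 9.72 in the Tcf1 replicates and 9.84 in control cells. Control cells were highest for both, and for Srebf2 the LMPP value lay between the replicates.

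Insig1, itself a target of SREBP and the anchor that retains it, read 10.18 in LMPPs, 10.68 and 10.70 in the Tcf1 replicates and 10.89 in control cells. Its difference from LMPPs was 0.51 (adjusted p = 0.186, limma). Insig2, the related anchor, spanned 0.42, and Scap, the sterol-sensing escort of SREBP, spanned 0.42 as well. Stard4, a sterol carrier of the cytosol, read 8.77, 8.86, 9.04 and 9.41 on the LMPP, Tcf1 and control arrays. In limma Insig1 against LMPPs, and Srebf2 and Stard4 against control cells, had an unadjusted p under 0.05.

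The LXR targets did not share a pattern. Abca1, which loads cholesterol onto apolipoproteins, read 7.32 in LMPPs, 7.81 and 7.95 in the Tcf1 replicates and 7.36 in control cells, so only the Tcf1 replicates were raised. It differed by 0.56 from LMPPs (adjusted p = 0.163, limma) and by 0.52 from control cells (adjusted p = 0.191). The mean of the macrophage markers given above was also highest on the Tcf1 arrays, and the part of macrophage RNA in the Abca1 signal was not tested. Mylip, a ubiquitin ligase that degrades lipoprotein receptors, read 8.93 in LMPPs, 8.56 and 9.0 in the Tcf1 replicates and 9.65 in control cells. Its difference from control cells was -0.87 (SE 0.22, adjusted p = 0.0879), with a replicate gap of 0.43, the widest of the members.

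Other genes of lipid metabolism came from 4 further lists. Of 10 further genes of sterol synthesis and uptake, Vldlr, a lipoprotein receptor, was lower in Tcf1 cells than in LMPPs and 9 did not pass. Vldlr read 8.64 in LMPPs, 6.34 and 6.30 in the Tcf1 replicates and 6.17 in control cells, a difference of -2.32 (SE 0.16, adjusted p = 0.000979, limma). The list median was -0.04 against LMPPs and -0.24 against control cells, and against control cells 0 passed, with 3 at an unadjusted p under 0.05. Of 8 further genes of SREBP control, 0 passed against either group in limma (2 and 3 at an unadjusted p under 0.05). Over all genes, 14.5% reached that p against LMPPs and 14.1% against control cells.

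Of 21 further genes of fatty acid synthesis and activation, Elovl7, an elongase, was lower in Tcf1 cells than in LMPPs (-1.82, SE 0.20, adjusted p = 0.00499, limma). It read 8.50 in LMPPs, 6.85 and 6.5 in the Tcf1 replicates and 6.72 in control cells. Acss2, which makes acetyl-CoA from acetate, read 7.93 in LMPPs, 8.18 and 8.39 in the Tcf1 replicates and 9.44 in control cells. Acss2 was lower in Tcf1 cells than in control cells (-1.15, SE 0.17, adjusted p = 0.0148), the same shape as Cyp51. Fads3, a relative of Fads1 and Fads2, was also lower than in control cells (-1.12, SE 0.22, adjusted p = 0.0394). It read 10.55 in LMPPs, 9.47 and 9.92 in the Tcf1 replicates and 10.82 in control cells, so the Tcf1 replicates lay below both other groups. Of 11 LXR receptor, storage and efflux genes, Scarb1, a receptor for high-density lipoprotein, was higher in Tcf1 cells than in control cells (0.93, SE 0.17, adjusted p = 0.0287). It read 10.45 in LMPPs, 10.23 and 10.39 in the Tcf1 replicates and 9.38 in control cells, which stood apart. None of these 11 passed against LMPPs in limma (1 at an unadjusted p under 0.05, which 14.5% of all genes reached).

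Markers of stroma and of cell division were set beside these results. Of 12 stromal and adipocyte genes, 1 was higher in Tcf1 cells than in LMPPs (Fn1), and against control cells 1 was higher (Fn1) and 1 lower (Pdgfrb), both named after their values were seen. The list's mean was 7.35 in LMPPs, 7.34 and 7.63 in the Tcf1 replicates and 7.16 in control cells (summed linear signals of 2602, 2288, 2965 and 2478). Of the adipocyte genes in the list, Adipoq read 5.44 in LMPPs, 5.64 and 5.66 in the Tcf1 replicates and 5.42 in control cells. Fabp4 read 5.27, 5.46, 5.68 and 5.18 in that order, and Plin1 7.42, 7.24, 7.54 and 7.35. Lpl (8.31, 7.48, 8.19 and 6.87) and Cebpa (9.14, 8.17, 8.37 and 7.49) were highest in LMPPs. The part of stromal RNA in the results was not tested. Of 19 cell cycle genes 0 passed against either group in limma. At an unadjusted p under 0.05 were 7 against LMPPs and 1 against control cells, where 14.5% and 14.1% of all genes were. The mean of the cell cycle genes was 11.39 in LMPPs, 11.05 and 11.12 in the Tcf1 replicates and 11.11 in control cells. Their part in the differences of the lipid genes was not tested.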

How the data were processed

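Four-array expression data were used: log2 signals per probe set on Affymetrix whole-transcript arrays, deposited by the authors. RMA and Partek 6.5 were used, per the submitters' processing notes; parameters, genome build and detection calls are not given in the sources used here. The log base was taken from RMA and the range of the values (3.44 to 14.45). Of 35399 probe sets, 21789 had 1 gene symbol, 1621 several and 11989 none. Symbols were checked through Entrez numbers against a RefSeq table (GRCm38.p6), with 0 renamed.

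Group means were fitted with limma 3.58.1 (R 4.3.3) over 19938 genes, with Benjamini-Hochberg adjustment and a threshold of 0.05. Spread was estimated from the Tcf1 pair alone (1 residual degree of freedom, with 5.78 added by the prior), and the single arrays were assumed to vary alike. Separate cultures are not described for that pair, so p-values measure only the spread between its arrays. "Rose", "fell" and "passed" refer to this test. Control cells against LMPPs had no test. Tested on simulated data, the fit made false calls more often than its threshold states and missed many 2-fold changes. Members, lists and tests were chosen with earlier results of these data known. Members past a test or 2-fold apart are given in full, and of other lists those past a test are named. Of the entries of the other lists, those without a single-gene probe set were not analysed here. Alternatives were 2 normalizations, a filter on dim genes, a trended prior, averaged probe sets, all probe sets and leaving out each Tcf1 replicate.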

Additional observations from a re-analysis of the deposited data

Results flagged for a closer look

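The genes below differed between the cultures in their distance from LMPPs, by the test of Tcf1 cells against control cells itself, since the LMPP array cancels out of that difference. Cyp51 differed by -0.83, Acss2 by -1.15 and Fads3 by -1.12, all lower in Tcf1 cells. Scarb1 differed by 0.93, Acadm by 0.86 and Ppargc1a by 1.86, all higher in Tcf1 cells.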

How the results depend on the processing

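Over 72 member differences and their alternatives, no called difference changed sign, 23 values passed the test that had not passed before and 5 no longer passed. The filter on dim genes, the trended prior and the use of all probe sets keep each difference as it was and could not change a sign. With all 35399 probe sets tested, no probe set passed in either comparison (0 of all, with 3317 and 3702 at an unadjusted p under 0.05 in limma) and 0 members passed. Members past the test against LMPPs (3 in the main setting) numbered 6 with a trended prior. Members past the test against control cells (1 in the main setting) numbered 8 after median centring, 7 over genes above the 25th percentile, 4 with a trended prior, 2 with averaged probe sets and 0 after renewed quantile normalization (13 at an unadjusted p under 0.05). Genes past the test against LMPPs (610) numbered 1456 after median centring, 1196 over genes above the 25th percentile and 936 with a trended prior. Against control cells (874) they numbered 1646 after median centring and 1437 over genes above the 25th percentile. The members' median difference from control cells (-0.27) was -0.16 after renewed quantile normalization. Leaving out 1 Tcf1 replicate moved the members' median between 0.10 and 0.28 against LMPPs and between -0.32 and -0.19 against control cells, with no test because no residual degree of freedom is left. The 6 members 2-fold apart between control cells and LMPPs numbered 6 in every alternative with a value. Only the 2 normalizations and averaged probe sets could have changed that number, since the other alternatives leave these values as they were. The checks of scaling on counts of direction were added after the data were seen. No paired analysis was possible because only the Tcf1 cells carry replicate numbers. The number of arrays limits the precision.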

Other observations

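Genes of fatty acid oxidation, the route opposite to synthesis, were examined as a list of 18. Against LMPPs 1 of the 18 rose in Tcf1 cells, where 1.75% of all genes rose, and 17 did not pass. The median difference was -0.25. In 13 of the 18 both Tcf1 replicates read below LMPPs, against 36.8% of all genes. In limma 9 of the 18 had an unadjusted p under 0.05 against LMPPs, 4 higher and 5 lower, where 14.5% of all genes reached that p. Against control cells 2 of the 18 were higher past the test, where 1.90% of all genes were. Ppargc1a, a coactivator of mitochondrial genes, read 6.65 in LMPPs, 8.49 and 9.03 in the Tcf1 replicates and 6.90 in control cells. It was higher in Tcf1 cells than in LMPPs by 2.11 (SE 0.24, adjusted p = 0.00631, limma) and than in control cells by 1.86 (SE 0.24, adjusted p = 0.0082). Acadm, an acyl-CoA dehydrogenase of medium chains, read 11.20 in LMPPs, 10.84 and 10.94 in the Tcf1 replicates and 10.03 in control cells, and was higher in Tcf1 than in control cells by 0.86 (SE 0.16, adjusted p = 0.0357).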
